A study of Mus musculus with 4 samples.

Results

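At the embryonic stage E15.5, when the mouse molar passes from the cap to the bell stage, 301 single cells were kept as candidate cells of the dental papilla by their counts of Crym, Fgf3 and Dkk1. They were 175 of 9140 maxillary and 126 of 6064 mandibular E15.5 barcodes that held at least 2000 UMIs, with less than 10% of them from mitochondrial genes. Each UMI, a short random tag, stands for 1 RNA molecule caught in a droplet. A cell was kept when Crym, Fgf3 and Dkk1 together had at least 2 UMIs, the collagen genes Col1a1, Col1a2 and Col3a1 together had at least 5, and none came from the epithelial genes Epcam and Cdh1 or from Pecam1 and Ptprc, which mark endothelium and immune cells. The kept cells made up 1.92% of the maxillary barcodes past the depth and mitochondrial limits (95% binomial interval 1.64 to 2.22) and 2.08% of the mandibular ones (1.73 to 2.47). The name did not hold for all of them: they fell into clusters led by genes of several tissues, tendon, muscle and bone among them. The clusters differed with the markers found in a cell.

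The study followed gene expression in the mouse molar through tooth formation. Its single-cell data were 4 libraries, 1 for each jaw at E15.5 and at postnatal day 1 (P1), each from 6 pooled molars of wild-type mice, labelled WTB6 and of the C57BL/6J strain in the study's methods. The labels of the deposited data call the embryonic stage E15. No library carried a mutation, transgene or treatment. With 1 library for each stage and jaw there were no replicates, so no p-values were computed, and every interval given here is an exact 95% interval (binomial for shares and ratios, Poisson for levels) that covers counting error only. The E15.5 libraries held 109723360 maxillary and 86659227 mandibular UMIs in 10885 and 7947 barcodes, among 56940 barcodes of the whole series. Kept cells had a median of 12343 UMIs and 3936 detected genes in the maxillary library, and 17358 UMIs and 4636.5 genes in the mandibular one. The E15.5 libraries had 28 barcodes in common, and no kept cell was among the kept cells of both.

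The dental papilla is the neural crest-derived mesenchyme enclosed by the enamel organ, and it gives rise to the dentin-forming odontoblasts and to the pulp. At the cap and bell stages it exchanges signals with the overlying epithelium: mesenchymal Fgf3 and Fgf10 are FGF ligands that act on the epithelium, Bmp4 and activin (Inhba) pass between the layers, and Wnt signals are tuned by secreted inhibitors such as Dkk1, which binds the Wnt co-receptors Lrp5 and Lrp6. Crym encodes mu-crystallin, a protein that binds thyroid hormone. The follicle around the papilla, the alveolar bone, the muscle and tendon of the jaw and the connective tissue of the mouth lie close by, and fragments of them can enter a dissected molar.

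In the annotation of mm10 (GENCODE vM21), Fgf3 lies at chr7:144838083-144844436, Dkk1 at chr19:30545863-30549665 and Crym at chr7:120186380-120202111, all protein-coding. The 300-base RefSeq promoters of Fgf3 and Dkk1 (250 bases before to 50 after the gene's start, GRCm38.p6) each hold 1 copy of CTTTGAA, the core of the motif bound by LEF1 and TCF factors. They are shown because Lef1 was one of the genes that set the cells with Fgf3 apart. The sequences are written 5′ to 3′ on the gene's strand with the motif in capitals, and the motif of Fgf3 reads TTCAAAG, on the opposite strand. The motif starts 198 bases before the RefSeq start of Fgf3. The 29 bases printed lie at chr7:144838403-144838431 (plus strand), which GENCODE vM21 places in an intron of a transcript that begins further upstream. For Dkk1 the motif starts 117 bases before the RefSeq start. The 29 bases printed lie at chr19:30549596-30549624 (minus strand), inside the untranslated part of the first exon in GENCODE vM21. Searched on both strands, CTTTGAA occurred in 1687 of 32851 such promoters (5.14%), so the matches are a description of these windows and not evidence of binding.
Fgf3: ctgggtgaaaaTTCAAAGtcttctttctc
Dkk1: tcctcccaaagCTTTGAAatcccatcccg

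Crym was found in 89 maxillary and 97 mandibular kept cells, Fgf3 in 36 and 13, and Dkk1 in 91 and 34, and all 3 markers occurred together in 7 maxillary and 3 mandibular cells. The kept cells are described here by an entry marker: Fgf3 where it was found, else Dkk1, else Crym. A cell with 1 Fgf3 UMI passed the threshold only together with Crym or Dkk1. Fgf3 cells, with at least 1 Fgf3 UMI, numbered 36 (maxillary) and 13 (mandibular). Of these, 25 and 9 also had Crym, and 12 and 5 also had Dkk1. Crym and Dkk1 met in 11 and 7 cells. Dkk1 cells, with Dkk1 but no Fgf3, numbered 79 (45.1% of the maxillary kept cells) and 29 (23.0% of the mandibular ones). Crym-alone cells, with neither Fgf3 nor Dkk1, numbered 60 (34.3%) and 84 (66.7%). Crym-alone cells were thus the largest of the 3 groups in the mandibular library and Dkk1 cells in the maxillary one. In the P1 libraries the same rule kept 1665 and 1691 cells, of which 2.76% and 1.60% had Crym alone and 48.9% and 44.2% had both Fgf3 and Dkk1.

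**Figure D1:**
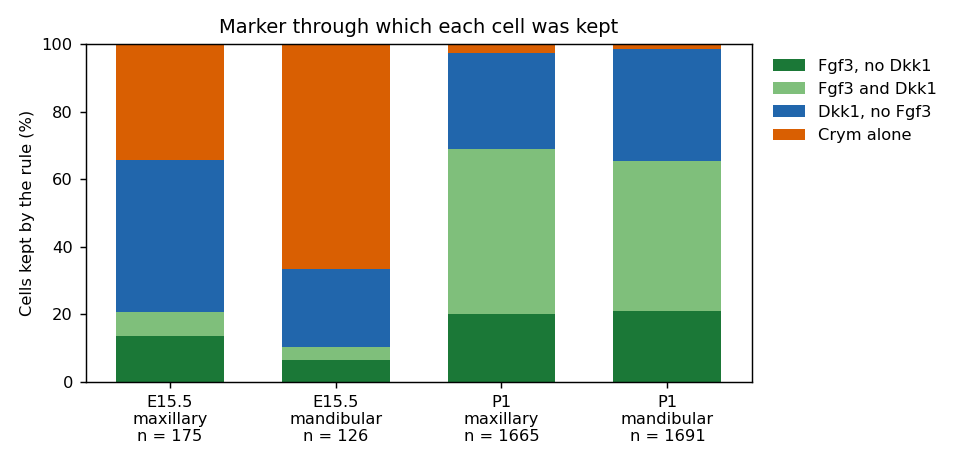
Share of the cells kept by the rule (y axis, percent) in each of the 4 libraries (x axis, with the number of cells). The cells are split by the markers found in them: Fgf3 without Dkk1, Fgf3 with Dkk1, Dkk1 without Fgf3, and Crym alone. Cells with Crym alone were 34.3% of the E15.5 maxillary and 66.7% of the E15.5 mandibular cells, and 2.76% and 1.60% of the P1 cells.

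Most of a marker's UMIs lay in the kept cells. Among barcodes past the limits, they held 76.4% of the maxillary and 81.0% of the mandibular Fgf3 UMIs, 64.2% and 75.8% of the Dkk1 UMIs, and 58.6% and 56.9% of the Crym UMIs. These shares follow from the rule and are given as a description. The counts behind them were small, with 107 and 51 UMIs of Fgf3, 407 and 138 of Dkk1 and 292 and 360 of Crym. Exactly 2 marker UMIs were found in 65 maxillary and 56 mandibular kept cells, just inside the threshold, and exactly 1 in 223 and 186 cells just outside it. The maxillary level of Barx1, a homeobox gene of the molar mesenchyme, was 515.9 UMIs per 1000000 UMIs of the group (CPM) in the cells just inside, 417.5 CPM in those just outside and 684.9 CPM in cells with 3 or more marker UMIs. In the mandibular library these levels were 141.6, 193.1 and 244.7 CPM.

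Clustering of all E15.5 barcodes past the limits, without Crym, Fgf3 and Dkk1, spread the kept cells over 19 of 36 maxillary and 16 of 29 mandibular clusters. The fullest cluster held 20% of the maxillary and 24.6% of the mandibular kept cells. Fgf3 cells came together: 22 of 36 (61.1%) lay in maxillary cluster 32, a cluster of 55 cells led by Rspo2, Dlx6os1, Lmo1, Plppr1 and Tac1, and 11 of 13 (84.6%) in mandibular cluster 17, with 141 cells led by Col8a1, Plppr1 and Lypd1 and with Dlx6os1 and Rspo2 among its leading genes. Another 8 maxillary Fgf3 cells lay in cluster 11, led by the histone gene Hist1h1b and other genes of dividing cells. Both Fgf3-rich clusters held Dkk1 cells too, 6 in each.

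Dkk1 cells went elsewhere in each jaw. In the maxillary library 32 of 79 (40.5%) lay in cluster 8, with 367 cells whose leading genes included the netrin receptor gene Unc5d and the adhesion gene Kirrel3. In the mandibular library 15 of 29 (51.7%) lay in cluster 10, with 228 cells led by Ibsp, Mmp13 and Spp1, genes of bone-forming tissue. Maxillary cluster 22, led by the pigment cell genes Dct and Pmel together with Twist2, held 7 more Dkk1 cells.

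Many Crym-alone cells lay in clusters led by genes of other connective tissues. In the mandibular library 31 of 84 (36.9%) fell in cluster 15, whose leading genes were Tnmd and Scx, known for tendon, and 15 in cluster 2, which had 792.9 CPM of the transcription factor gene Ebf2. Another 6 fell in cluster 6, led by the muscle precursor genes Msc and Pax7. In the maxillary library 20 of 60 (33.3%) lay in cluster 3, led by Ebf2 and Rbp4, and 9 in cluster 27, led by Tnmd and Scx. Of the other maxillary Crym-alone cells, 7 and 4 lay in clusters 13 and 11, led by genes of dividing cells, 3 and 4 in clusters 16 and 29, led by genes of muscle, and 5 in cluster 7, which had Tfap2b and Msx1 among its leading genes.

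**Figure D2:**
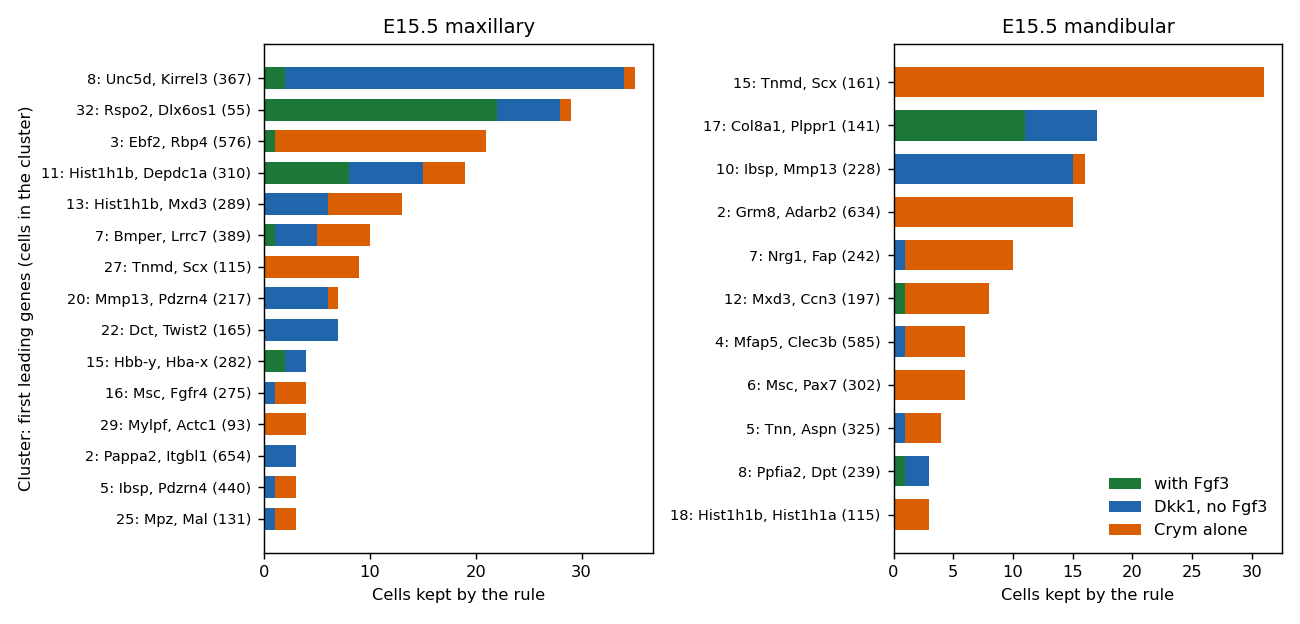
Number of kept cells (x axis) in each E15.5 cluster with at least 3 of them (y axis, with its leading genes), split by entry marker. Shown are 15 of the 19 maxillary and 11 of the 16 mandibular clusters that held kept cells. Fgf3 cells gather in 1 cluster per jaw, maxillary 32 and mandibular 17, while Crym-alone cells lie mostly in others.

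Levels of the marker list of the dental mesenchyme that the rule did not use (Msx1, Msx2, Pax9, Barx1, Lhx6, Lhx8, Fgf10, Tfap2b and Runx2) were then summed. Over the list, maxillary Fgf3 cells had 2644 CPM, Dkk1 cells 2832 CPM, Crym-alone cells 679.5 CPM and the other E15.5 mesenchyme 1514 CPM. The mandibular sums were 1826, 1688, 296.4 and 707.3 CPM. These sums were above the other mesenchyme in Fgf3 and Dkk1 cells of both jaws and below it in Crym-alone cells. Of the mandibular Dkk1 sum, 1183 CPM were Runx2, a gene of bone as well, against 308.5 CPM in the other mesenchyme. The other mesenchyme were the 5056 maxillary and 2813 mandibular cells that met every other part of the rule but had no UMI of the 3 markers. It is the same set of cells in each comparison within a jaw, so the comparisons of Fgf3, Dkk1 and Crym-alone cells with it share their reference. Markers of epithelium, endothelium and immune cells were low, with sums over the kept cells of 42.6, 8.68 and 18.2 CPM in the maxillary and 3.74, 12.03 and 17.0 CPM in the mandibular library, and Epcam, Cdh1, Pecam1 and Ptprc were at 0 by the rule. Shh was also at 0. Dspp, a gene of the dentin matrix, was at 0 in all 301 cells.

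Cells with marker counts of muscle, tendon and bone were present. Of the kept cells, 8 maxillary (4.57%) and 7 mandibular (5.56%) cells had at least 5 UMIs of the muscle genes Myod1, Myog, Des and Actc1, against 2.61% and 8.89% of the other mesenchyme. None of these was an Fgf3 cell. At least 5 UMIs of Scx and Tnmd were found in 16.7% of the maxillary and 40.5% of the mandibular Crym-alone cells, against 3.03% and 4.59% of the other mesenchyme. At least 50 UMIs of Ibsp and Spp1 were found in 10 of the 29 mandibular Dkk1 cells (34.5%) and in none of the 79 maxillary ones.

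Pooled, the kept cells differed from the other mesenchyme in few genes. Of 3519 genes with at least 50 CPM in the higher group in both jaws, 24 (0.682%) were at least 2-fold higher in the kept cells in both jaws and 32 (0.909%) were at least 2-fold lower. The genes at the head of the higher ones were those of skeletal muscle, such as the troponin genes Tnnc1, Tnnc2 and Tnni1 and the myosin light chain gene Mylpf. Mylpf stood at 859.2 CPM in the kept cells and 15.2 CPM in the other mesenchyme of the maxillary library, and at 397.1 and 34.2 CPM in the mandibular one. A few of the kept cells carried these counts. Of Tnnc1 UMIs in kept cells, 4 maxillary cells gave 554 of 558 (99.3%) and 4 mandibular cells 199 of 204 (97.5%). With each gene's highest cell left out, 7 of the 24 higher genes were still called. Leaving out that cell takes away a gene's highest count, so it is no check of lower genes, here or below. Within 1 jaw the counts were 107 higher (2.73%) and 156 lower (3.98%) of 3916 genes for the maxillary library and 64 higher (1.72%) and 75 lower (2.02%) of 3720 for the mandibular one. With Crym-alone cells left out of the kept cells, 58 genes (1.61%) were higher and 150 (4.17%) lower in both jaws.

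Without cells of at least 5 muscle UMIs in either group, 14 genes (0.399%) were higher and 40 (1.14%) lower of 3511. The higher ones were then headed by Dlx1as, Smpd3, Kirrel3, Lgals7 and Plppr1 and also held Dlx6os1, Wif1, Lef1, Tril, Bmp4, Tnmd and Ptch1. In the comparison of all kept cells, Dlx6os1, Lef1 and Bmp4 were no longer called without their highest cell. Smpd3, a sphingomyelinase gene needed for the mineralization of bone and dentin, had 88.8 CPM in all maxillary kept cells against 19.0 CPM in the other mesenchyme, and 204.2 against 28.5 CPM in the mandibular library, where 64.8% of its UMIs in kept cells came from 4 cells. Its maxillary level was 299.9 CPM in Fgf3 cells and 54.9 CPM in Dkk1 cells, and its mandibular level 443.7 and 673.1 CPM. Kirrel3 had 374.4 against 63.7 CPM and 244.0 against 54.0 CPM. None of the 19 listed matrix and adhesion genes at the floor was called in either direction, with median log2 ratios of -0.66 and -0.27. Matrix genes outside that list were among the lower ones. Elastin (Eln) had 125.4 CPM in the kept cells and 460.2 CPM in the other mesenchyme of the maxillary library, a log2 ratio of -1.88 (-2.04 to -1.72), and 55.6 and 218.8 CPM in the mandibular one, a log2 ratio of -1.98 (-2.23 to -1.73). The Wnt inhibitor gene Sfrp2 (log2 ratios of -1.79 and -1.78), asporin (Aspn, -1.75 and -1.75) and dermatopontin (Dpt, -1.79 and -2.36) were lower as well.

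Fgf3 cells set against the other mesenchyme gave many more differences in the same direction in both jaws: 209 of 3845 genes were higher (5.44%) and 333 lower (8.66%). With each gene's highest cell left out, 116 of the 209 higher genes were still called. Of the 13 mandibular Fgf3 cells, 4 (30.8%) had top scores for doublets (droplets with mixed cells), against 6.47% of the other mesenchyme. In the maxillary library these shares were 2.78% and 8.11%. The comparison was not repeated without such cells. The genes with the largest ratios in the less different jaw were Dlx1as, Sox5os4, Lmo1, Nebl, Plppr1, Plac8, Etv4 and Prdm1. For Nebl and Plac8, 20 of 27 and 16 of 21 mandibular UMIs came from 1 cell, and without it their log2 ratios went from 5.08 to 3.26 and from 4.63 to 2.68. Lmo1, a LIM-only transcription co-factor gene, stood at 634.4 CPM (569.4 to 704.8) in maxillary Fgf3 cells and 7.90 CPM (7.18 to 8.68) in the other mesenchyme. In the mandibular library it stood at 196.2 CPM (143.7 to 261.8) and 6.03 CPM (5.30 to 6.82), and 30 of its 46 UMIs there came from 1 cell. Without the highest cell its log2 ratio went from 6.33 to 6.27 in the maxillary and from 5.02 to 3.73 in the mandibular library. Plppr1, a gene of a phosphatase-related membrane protein, had 800.8 against 25.7 CPM and 610.1 against 22.2 CPM. The groups of cells were chosen on Fgf3, the split by entry marker was made after the values had been seen, and the differences are a description. The floor applied to the higher group, so a gene could pass it through its level in the Fgf3 cells alone. Counts and medians over listed genes at the floor are thus a description as well.

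Transcription factor genes of odontogenesis were higher or near the level of the other mesenchyme, and none was called lower. Of 22 listed, 14 passed the 50 CPM floor, and 5 of them were higher in both jaws, against 5.44% higher and 8.66% lower over all genes: Barx1, Dlx2, Dlx5, Prrx2 and Lef1. Their median log2 ratio over the list was 0.43 for maxillary cells and 1.68 for mandibular ones, where the medians over all genes at the floor were 0.09 and 0.12. Barx1 stood at 1062 CPM (977.7 to 1152) in maxillary Fgf3 cells, 819.0 CPM in Dkk1 cells, 228.7 CPM in Crym-alone cells and 304.5 CPM in the other mesenchyme. In the mandibular library the same groups had 524.7 (436.1 to 626.1), 166.5, 164.5 and 188.7 CPM. Dkk1 cells were thus above the other mesenchyme for Barx1 in the maxillary but not in the mandibular library. Its log2 ratio in Fgf3 cells was 1.80 (1.68 to 1.92) and 1.48 (1.21 to 1.73). Lef1, a factor that turns on Wnt target genes, had 407.7 CPM in maxillary and 358.4 CPM in mandibular Fgf3 cells, against 73.0 and 18.1 CPM in the other mesenchyme, and stood at 27.9 and 1.88 CPM in Crym-alone cells.

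Of the distal-less homeobox genes, Dlx2 and Dlx5 were higher in the Fgf3 cells of both jaws. Dlx2 had 243.2 CPM (203.6 to 288.2) in maxillary and 230.4 CPM (173.1 to 300.6) in mandibular Fgf3 cells, against 18.9 and 9.32 CPM in the other mesenchyme. Dlx5 had log2 ratios of 2.49 (2.16 to 2.82) and 2.10 (1.52 to 2.63). Dlx1 was at 0.55 (-0.09 to 1.13) and 2.28 (1.49 to 2.97) and Dlx6 at -0.23 (-1.68 to 0.90) and -0.05 (-1.93 to 1.31), and neither was called. The antisense transcripts Dlx1as and Dlx6os1 had log2 ratios of 5.85 and 6.31, and 4.81 and 4.15, but whether reads were counted by strand is not given in the sources used here, so these can hold reads of Dlx1 and Dlx6. Tfap2c, an AP-2 factor gene, had 128.0 CPM in Fgf3 cells of either jaw, against 8.24 CPM in the maxillary and 2.19 CPM in the mandibular other mesenchyme. Msx1, a homeobox gene needed for tooth formation, was not called: its log2 ratio was 0.13 (-0.14 to 0.38) in the maxillary and 2.09 (1.70 to 2.45) in the mandibular library, where the other mesenchyme had 63.2 CPM of it against 211.0 CPM in the maxillary library. Runx2, needed for bone and tooth, was at 557.7 against 521.2 CPM and at 452.2 against 308.5 CPM.

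**Figure D3:**
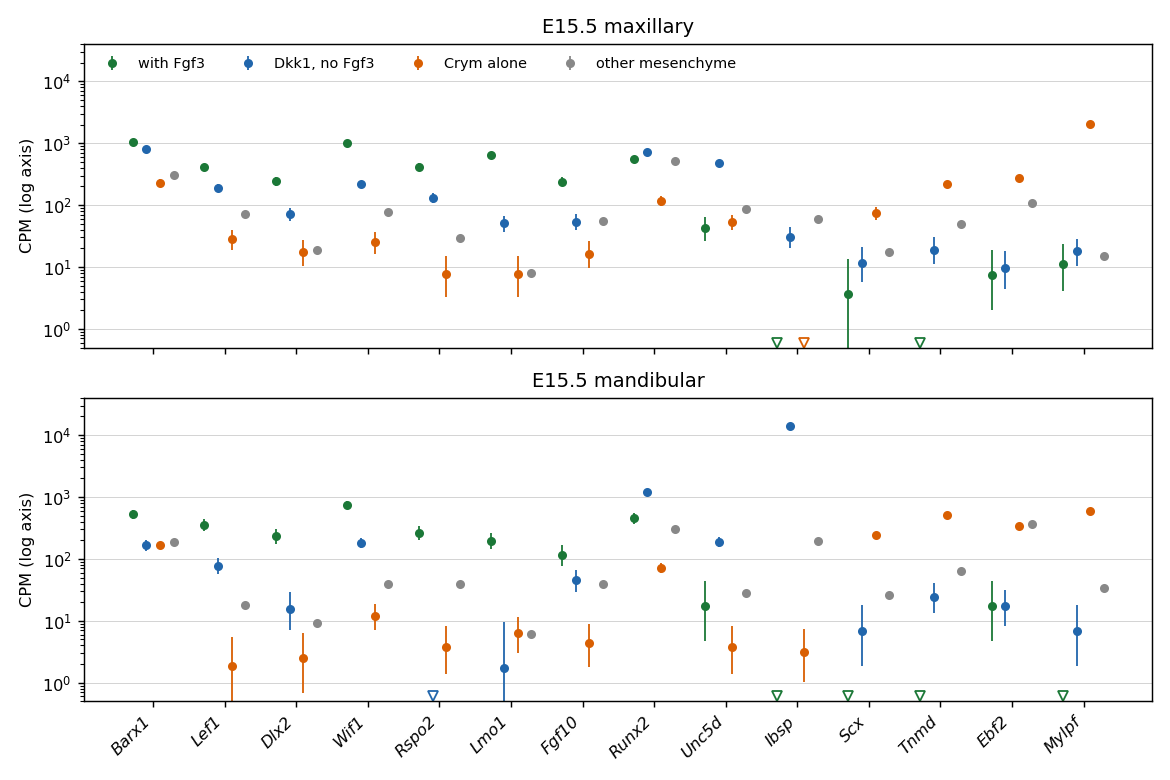
Levels of chosen genes (y axis, CPM, log scale) in Fgf3, Dkk1 and Crym-alone cells and in the other mesenchyme of each E15.5 library, with exact 95% Poisson intervals for counting error; open triangles pointing down at the foot of the axis stand for a count of 0. Barx1, Lef1, Wif1 and Lmo1 are higher in Fgf3 cells than in the other mesenchyme of both jaws, and Scx is highest in Crym-alone cells.

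The ligand gene Fgf10 and 4 genes of the FGF response were higher in the Fgf3 cells, while most listed FGF genes were under the floor or not called. Fgf10, the other mesenchymal ligand for the receptor Fgfr2b, was the sole one of 9 listed FGF ligand genes other than Fgf3 at the floor. It had 239.5 CPM (200.3 to 284.2) in maxillary Fgf3 cells against 56.0 CPM (54.0 to 58.0) in the other mesenchyme, and 115.2 CPM (75.9 to 167.6) against 39.3 CPM (37.4 to 41.2) in the mandibular library. Of 14 genes of FGF receptors and responses, 9 passed the floor, against 4 in the comparisons of Dkk1 and of Crym-alone cells. Genes such as Etv4 passed it through the Fgf3 cells alone. Of the 9, whose median log2 ratios were 0.74 and 0.78, 5 were not called and none was lower. Over all genes, 5.44% were higher and 8.66% lower. The 4 higher ones were Spry4, Dusp6, Etv4 and Il17rd. All 4 are genes that FGF signals are known to turn on, and Spry4, Dusp6 and Il17rd dampen the pathway. Etv4, an ETS transcription factor gene, stood at 118.8 CPM (91.7 to 151.5) against 4.41 CPM in the maxillary and 106.7 CPM (69.0 to 157.4) against 5.50 CPM in the mandibular library. Dusp6 had log2 ratios of 2.42 (1.97 to 2.84) and 2.67 (1.99 to 3.28).

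Genes of the Wnt pathway moved in both directions, in a comparison in which 5.44% of all genes were higher and 8.66% lower. Among antagonists, 7 of 16 passed the floor: Wif1, which binds Wnt ligands, was higher, and Dkk2, Sfrp1 and Sfrp2 were lower. Wif1 stood at 1002 CPM (919.8 to 1089) in maxillary Fgf3 cells against 76.7 CPM in the other mesenchyme and at 738.0 CPM (632.2 to 856.6) against 39.3 CPM in the mandibular library. Of its 173 mandibular UMIs 85 came from 1 cell, without which the log2 ratio went from 4.23 to 3.48. Sfrp2 had log2 ratios of -3.03 (-3.44 to -2.64) and -2.83 (-3.70 to -2.08). Among target and feedback genes, 9 of 15 passed the floor, with Lef1, Tcf7 and Rspo2 higher and Tcf7l2 and Rspo3 lower. Rspo2, a secreted booster of Wnt signals, had 418.7 CPM in maxillary and 260.2 CPM in mandibular Fgf3 cells against 29.8 and 39.2 CPM. Among receptor genes, Fzd1 and Fzd3 were higher and Ror1 lower of 8 at the floor. Wnt10a, a ligand gene below the floor in the mandibular library, had 76.8 and 42.7 CPM in Fgf3 cells, from 42 and 10 UMIs, against 3.21 and 1.58 CPM in the other mesenchyme, and 6 of the 10 came from 1 cell.

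BMP and activin genes were higher or not called, and 2 of their antagonists were lower. The shares over all genes were again 5.44% higher and 8.66% lower. Of 21 listed BMP and activin genes, 10 passed the floor and 4 were higher: the ligand genes Bmp4 and Inhba, the response gene Id1 and Bambi, a decoy receptor that is also a response gene. Bmp4 had 340.1 CPM (293.0 to 392.6) in maxillary Fgf3 cells against 49.7 CPM in the other mesenchyme, and 179.2 CPM (129.1 to 242.2) against 26.0 CPM in the mandibular library. Its log2 ratio was 2.78 in each jaw. Inhba had 325.5 against 84.1 CPM and 541.8 against 35.2 CPM. Among 5 antagonist genes at the floor, follistatin (Fst), which binds activin, and Bmper were lower, and in the maxillary library a single Fst UMI gave 1.83 CPM in Fgf3 cells against 66.0 CPM. In the Hedgehog pathway, of 7 genes at the floor, the target gene Ptch1 was higher (log2 ratios of 1.29 and 2.04). The co-receptor genes Gas1, Cdon and Boc were lower, Boc at -3.60 (-5.87 to -2.05) and -1.03 (-2.48 to 0.09). The mandibular interval of Boc includes no difference. Neither of the 2 Notch pathway genes at the floor was called.

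**Figure D4:**
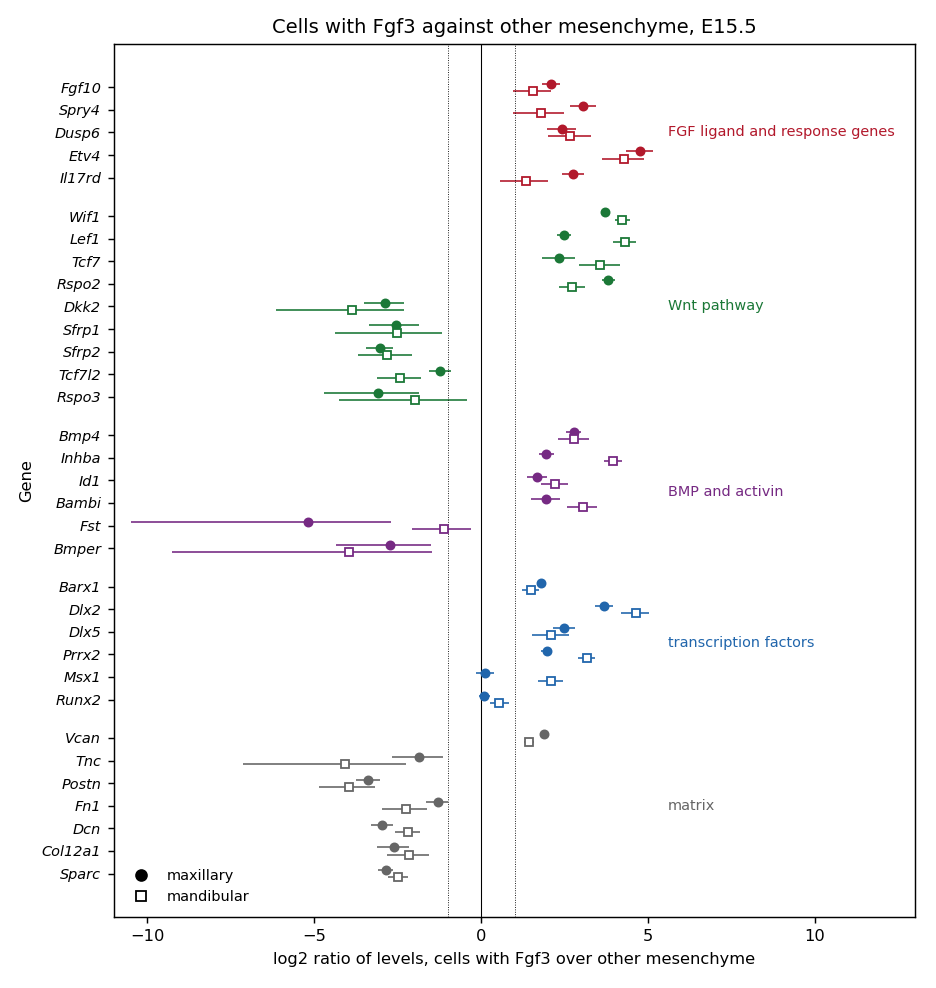
Log2 ratio of the level in Fgf3 cells to that in the other mesenchyme (x axis) for genes of 5 groups (y axis), with filled circles for the maxillary and open squares for the mandibular library and exact 95% intervals for counting error; dotted lines mark 2-fold. Fgf10, Etv4, Wif1, Lef1, Bmp4 and Inhba lie to the right in both jaws, and Sfrp2, Postn, Dcn and Sparc to the left.

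Many genes of the fibrous matrix were lower in the Fgf3 cells. Of 21 matrix and adhesion genes, 20 passed the floor, 10 were lower and 1 was higher, against 8.66% lower and 5.44% higher over all genes, with a median log2 ratio of -1.13 for maxillary and -1.21 for mandibular cells. Periostin (Postn), a matrix gene of the follicle and of fibrous tissue, had 113.4 CPM in maxillary and 55.5 CPM in mandibular Fgf3 cells, against 1181 and 854.2 CPM in the other mesenchyme. Decorin (Dcn) had 149.9 against 1165 CPM and 264.5 against 1214 CPM. The exception was versican (Vcan), a large proteoglycan of condensing and loose mesenchyme, with 2084 CPM (1965 to 2209) against 560.6 CPM and 1596 CPM (1438 to 1766) against 595.8 CPM. Genes listed for the dental follicle followed the matrix genes: Aldh1a2 and Igfbp5, the 2 of 6 at the floor, were both lower, with 54.9 and 4.27 CPM of Igfbp5 in Fgf3 cells against 444.7 and 564.8 CPM. Of 4 odontoblast and bone genes at the floor, Smpd3 was called higher and Ibsp and Sparc lower. Smpd3 had 299.9 against 19.0 CPM and 443.7 against 28.5 CPM. Of its 104 mandibular UMIs 50 came from 1 cell, without which the log2 ratio went from 3.96 to 3.14. Ibsp had no UMI in the Fgf3 cells of either jaw. Of 7 genes listed for the papilla at later stages, Smoc2 alone was at the floor in both jaws and was lower, with 51.2 against 249.8 CPM and 25.6 against 360.5 CPM. Tac1, of the same list, had 192.0 against 9.73 CPM in the maxillary library and, under the floor, 38.4 against 5.98 CPM in the mandibular one.

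Dkk1 cells shared fewer genes between the jaws: 34 of 3511 genes (0.968%) were higher than in the other mesenchyme in both and 115 (3.28%) were lower. With each gene's highest cell left out, 22 of the 34 higher genes were still called. In the maxillary library alone, 170 of 4021 genes (4.23%) were higher, and in the mandibular library alone 288 of 3946 (7.3%). The genes higher in both jaws included Unc5d, with 476.0 against 85.3 CPM and 187.4 against 28.5 CPM, and Ptch1, with 680.7 against 167.9 CPM and 588.1 against 103.6 CPM. Among Wnt antagonists, Sostdc1, Frzb and Wif1 were higher and Dkk2 was lower, of 7 at the floor. Sostdc1, an inhibitor of Wnt and BMP signals that limits tooth number, stood at 946.7 CPM in maxillary and 497.9 CPM in mandibular Dkk1 cells against 309.0 and 109.4 CPM, log2 ratios of 1.62 (1.52 to 1.71) and 2.19 (2.01 to 2.36). Bmp6, Id1 and Id3 were higher among 9 BMP and activin genes at the floor, of which Bmp6 and Id1 were no longer called without their highest cell, and Tfap2b and Lef1 among 9 odontogenic transcription factor genes.

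The jaws parted at the bone genes. Ibsp, which encodes bone sialoprotein, stood at 13824 CPM in mandibular Dkk1 cells against 195.2 CPM in the other mesenchyme, and at 30.6 against 58.6 CPM in the maxillary library. Of its 7974 UMIs in mandibular kept cells, 6944 (87.1%) came from 4 cells. Osteopontin (Spp1) stood at 4637 against 118.2 CPM in the mandibular and 36.9 against 19.4 CPM in the maxillary library. In mandibular kept cells, 99.7% of its UMIs came from 4 cells. Runx2 was higher in mandibular Dkk1 cells, with 1183 against 308.5 CPM, and near the other mesenchyme in maxillary ones, with 725.0 against 521.2 CPM. Summed over the 6 listed osteoblast markers, Dkk1 cells had 139.3 CPM in the maxillary library against 159.5 CPM in the other mesenchyme, and 19063 against 387.7 CPM in the mandibular one. Genes high in the maxillary Dkk1 cells alone included Kirrel3, with 880.2 against 63.7 CPM and a mandibular 43.4 against 54.0 CPM, and Tac1, the substance P precursor gene, with 293.4 against 9.73 CPM and no mandibular UMI.

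Crym-alone cells differed from the other mesenchyme in 25 higher (0.718%) and 49 lower (1.41%) of 3484 genes in both jaws. With each gene's highest cell left out, 8 of the 25 higher genes were still called. Most of the lost genes were those of muscle, and muscle marker sums were 2300 CPM in the maxillary and 672.9 CPM in the mandibular Crym-alone cells, against 84.6 and 196.2 CPM in the other mesenchyme, with Actc1 the most abundant. Their part in the other differences was not tested. Scx, the transcription factor gene of tendon, stood at 74.0 against 17.4 CPM in the maxillary library and 242.0 against 25.8 CPM in the mandibular one, log2 ratios of 2.09 (1.73 to 2.42) and 3.23 (3.06 to 3.40). Tnmd, a membrane protein gene of mature tendon, had log2 ratios of 2.12 (1.92 to 2.31) and 3.02 (2.90 to 3.13). Ebf2 was higher in the maxillary Crym-alone cells, with 276.8 against 109.8 CPM, and near the other mesenchyme in the mandibular ones, with 337.7 against 361.0 CPM.

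Of 7 odontogenic factor genes at the floor in the comparison of Crym-alone cells with the other mesenchyme, in which 0.718% of all genes were higher and 1.41% lower, Runx2 and Klf4 were lower, 5 were not called and none was higher, with median log2 ratios of -0.74 and -0.65, against medians over all genes of -0.06 and -0.04. Runx2 stood at 116.3 CPM in maxillary and 72.5 CPM in mandibular cells, log2 ratios of -2.16 (-2.43 to -1.91) and -2.09 (-2.36 to -1.82). Among Wnt antagonists, Sfrp1 and Sfrp2 were lower of 4 at the floor. The guidance genes Sema3a, Robo2 and Efna5 were lower of 11, and Ibsp and Alpl, the alkaline phosphatase gene, of 3 odontoblast and bone genes.

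Within the kept cells, Fgf3 cells without Dkk1 (24 maxillary and 8 mandibular) were also set against Dkk1 cells, and 213 of 3624 genes (5.88%) were higher and 168 (4.64%) lower in both jaws. The head of the higher genes was Lhfpl3, with 380.7 against 5.28 CPM in the maxillary and 174.0 against 5.20 CPM in the mandibular library, where 30 of its 33 UMIs in kept cells came from 4 cells. It was followed by Prdm1, Lmo1, Tril, Meox1 and Tfap2c. Prdm1, a zinc finger repressor gene, had 86.8 against 4.22 CPM and 93.2 against 3.47 CPM. Of 8 Wnt antagonists at the floor, Wif1, Notum and Kremen1 were higher in the Fgf3 cells and Sostdc1, Sfrp2 and Dkk2 in the Dkk1 cells. Of 8 Wnt target and feedback genes, Lef1 and Rspo2 were higher in the Fgf3 cells and Tcf7l2 and Ccnd1 in the Dkk1 cells. Other listed genes higher in the Fgf3 cells included Fgf10, Spry4, Etv4, Il17rd, Bmp4, Inhba and Dlx2, and Bmp6 was higher in the Dkk1 cells. Of 16 S phase genes at the floor, 13 were higher in the Fgf3 cells, while none of 15 G2/M genes at the floor was called, with median log2 ratios of 0.14 and 3.18. The lower genes were headed by the haemoglobin genes, copies that share near-identical sequence, and 91.3% of the maxillary and 96.0% of the mandibular Hba-a1 UMIs of kept cells came from 4 cells. Without cells of at least 50 haemoglobin UMIs, 198 genes (5.43%) were higher and 189 (5.19%) lower, and Pdzrn4 and Tshz2 headed the lower ones.

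Summed levels of cell cycle genes were higher in Fgf3 cells than in the other mesenchyme of their library, though most single genes were not called: 4 of 15 S phase genes at the floor (Mcm2, Mcm3, Mcm7 and Uhrf1) and 4 of 15 G2/M genes (Ccnb1, Aurkb, Cenpe and Cenpa) were higher in both jaws and none was lower, against 5.44% and 8.66% of all genes. The summed level of 20 S phase genes was 2022 CPM (1905 to 2145) in maxillary Fgf3 cells, 1012 CPM in Dkk1 cells, 1249 CPM in Crym-alone cells and 915.5 CPM in the other mesenchyme. The mandibular sums were 1664 CPM (1503 to 1837), 558.6, 1245 and 977.4 CPM. For 20 G2/M phase genes the maxillary sums were 2560, 2277, 1485 and 1289 CPM and the mandibular ones 2009, 346.9, 1700 and 1273 CPM. The log2 ratio of Fgf3 cells to the other mesenchyme was 1.14 (1.06 to 1.23) and 0.77 (0.62 to 0.91) for S phase and 0.99 (0.91 to 1.07) and 0.66 (0.52 to 0.79) for G2/M. Mandibular Dkk1 cells were below the other mesenchyme, at -0.81 (-0.97 to -0.65) and -1.88 (-2.08 to -1.68), while maxillary Dkk1 cells were at 0.14 (0.05 to 0.24) and 0.82 (0.76 to 0.88). With each cell thinned to 2000 UMIs, at least 3 S phase UMIs were found in 50% of the maxillary (32.9 to 67.1) and 38.5% of the mandibular Fgf3 cells (13.9 to 68.4), against 19.3% and 22.2% of the other mesenchyme. For G2/M these shares were 52.8% (35.5 to 69.6) and 30.8% (9.09 to 61.4), against 15.3% and 15.8%. The intervals of the 13 mandibular cells include the share of the other mesenchyme for both phases. Fgf3 cells were also deeper, with medians of 14235 and 16119 UMIs against 10167 and 13787 in the other mesenchyme. The cells were thinned after they had been chosen on their full counts. Fgf3 cells were not compared with the other mesenchyme at matched depth, so the part of depth was not tested. Epithelial cells of the same libraries had 1031 and 827.2 CPM of the S phase genes.

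**Figure D5:**
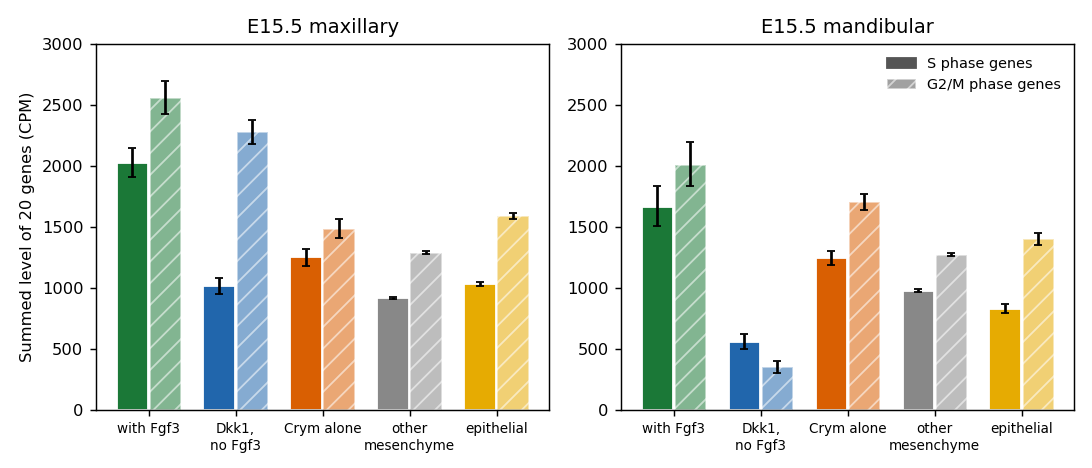
Summed level of 20 S phase genes (solid bars) and 20 G2/M phase genes (hatched bars) in CPM (y axis) for Fgf3, Dkk1 and Crym-alone cells, the other mesenchyme and epithelial cells of each E15.5 library (x axis), with exact 95% Poisson intervals for counting error. Fgf3 cells have the tallest S phase bar in each library, at 2022 and 1664 CPM, and mandibular Dkk1 cells the shortest, at 558.6 CPM.

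Between the jaws, 148 of 3791 genes (3.9%) were at least 2-fold higher in the maxillary kept cells and 88 (2.32%) in the mandibular ones. The head of the maxillary genes was Lrrtm4, Cntn6, Tac1, Gria1, Gm26871 and Lhx6, and that of the mandibular genes was Ibsp, Ifitm5, Slc13a5, Spp1, Col11a2 and Car3. Cntn6, a neural adhesion gene, had 374.4 CPM in maxillary and 9.13 CPM in mandibular kept cells, and 238.5 and 45.6 CPM in the other mesenchyme, so the jaws also differed outside the kept cells. Of 15 odontogenic transcription factor genes at the floor, 9 were higher in the maxillary cells and none in the mandibular ones, among them Msx1, Pax9, Barx1, Lhx6 and Lhx8. Barx1 had 629.2 CPM in maxillary kept cells, at a log2 ratio of 1.65 (1.51 to 1.80) to mandibular ones. The makeup by entry marker differed between the jaws at the same time, with 66.7% of the mandibular cells having Crym alone, and its part in the difference cannot be told apart from a difference between jaws in these sums.

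Within the Fgf3 cells the jaws were nearer for several of these genes. Msx1 had a log2 ratio of maxillary to mandibular cells of 1.54 (1.29 to 1.79) over all kept cells and of -0.22 (-0.67 to 0.24) over Fgf3 cells, and 1.74 (1.68 to 1.80) in the other mesenchyme. Tfap2b went from 2.61 (2.28 to 2.95) to 0.17 (-0.39 to 0.76) and Pax9 from 2.23 (1.85 to 2.63) to 0.29 (-0.29 to 0.90). Barx1 stayed higher in the maxillary Fgf3 cells, at 1.02 (0.73 to 1.31). With Crym-alone cells left out, 258 genes (6.37%) were higher in the maxillary and 251 (6.19%) in the mandibular kept cells, of 4053. With the cells of at least 5 muscle marker UMIs left out, these counts were 142 (3.7%) and 95 (2.48%) of 3835. Over all genes, 254 of 4131 (6.15%) were higher in maxillary and 172 (4.16%) in mandibular Fgf3 cells, the latter from 13 cells.

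Between the stages, the P1 cells kept by the same rule had 313 of 3780 genes (8.28%) higher and 202 (5.34%) lower than the E15.5 cells in both jaws. The head of the higher genes was Dspp, Sct, Scin, D030025E07Rik, Lrrc15 and Sp6. Dspp had no UMI at E15.5 and 105.4 CPM in maxillary and 295.8 CPM in mandibular P1 cells, log2 ratios of at least 6.48 and 7.89 with the count of 0 set to 3 counts over the group. Of 9 odontoblast and bone genes at the floor, 7 were higher at P1 and none was lower, with Smpd3 going from 88.8 to 920.6 CPM and from 204.2 to 1206 CPM. The lower genes were headed by Meox2 and the muscle genes Myog, Actc1, Tnnt2, Tnni1 and Ttn. Without cells of at least 5 muscle UMIs, Rbp4, Meox2 and Pdzrn4 led them, with 301 genes (7.99%) higher and 178 (4.73%) lower. The makeup by entry marker differed between the stages at the same time. Crym-alone cells were 34.3% of the maxillary and 66.7% of the mandibular kept cells at E15.5, and 2.76% and 1.60% at P1. The part of this makeup cannot be told apart from a difference between stages in these sums.

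The P1 libraries were not independent of each other. They had 7131 barcodes in common, among them 1607 of the 1665 maxillary kept cells (96.5%) and 557 of the 1691 mandibular ones (32.9%). Without the shared barcodes, which left 58 maxillary and 1134 mandibular P1 cells, 113 of 3566 genes (3.17%) were higher and 86 (2.41%) lower at P1.

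Cells with Fgf3 were compared between the stages as well. Their makeup differed: 12 of 36 maxillary and 5 of 13 mandibular Fgf3 cells had Dkk1 at E15.5, against 814 of 1150 and 748 of 1104 at P1, and 25 and 9 had Crym, against 66 and 79 at P1. Of 3854 genes, 345 (8.95%) were higher at P1 and 176 (4.57%) lower. Without the barcodes that both P1 libraries held, 223 of 3632 (6.14%) were higher and 102 (2.81%) lower, from 6 maxillary and 785 mandibular P1 cells, and the P1 levels below include the shared barcodes. Lef1 went from 407.7 to 20.9 CPM in the maxillary and from 358.4 to 17.0 CPM in the mandibular Fgf3 cells, log2 ratios of -4.29 (-4.53 to -4.05) and -4.40 (-4.76 to -4.03). Wif1 had 962.2 and 1021 CPM at P1, log2 ratios of -0.06 (-0.18 to 0.07) and 0.47 (0.25 to 0.69). Rspo2 had 287.7 and 192.9 CPM, log2 ratios of -0.54 (-0.73 to -0.34) and -0.43 (-0.80 to -0.04). Neither passed the 2-fold limit. Over all kept cells both were higher at P1 in both jaws, at 1.53 (1.43 to 1.64) and 3.03 (2.87 to 3.20) for Wif1 and 1.05 (0.90 to 1.21) and 2.60 (2.26 to 2.97) for Rspo2. Smpd3 was higher at P1, at 982.5 and 1117 CPM, log2 ratios of 1.71 (1.49 to 1.94) and 1.33 (1.05 to 1.62). The S phase gene Mcm2, for a licensing factor of DNA replication, was at 60.3 and 55.5 CPM at E15.5 and at 16.6 and 17.2 CPM at P1. Each stage was 1 library per jaw, so stage and library cannot be told apart.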

How the data were processed

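Single-cell RNA sequencing (10x Chromium 3' v3.1) was analysed for 4 libraries of mouse molars. The authors deposited raw UMI counts for 32285 genes and each barcode called by Cell Ranger 7.0.1 (per the file headers), aligned to mm10 with the annotation of 10x Genomics for mm10, without normalization. How intronic and antisense reads were counted is not given in the sources used here. The libraries held 109723360 (E15.5 maxillary), 86659227 (E15.5 mandibular), 128812956 (P1 maxillary) and 139873101 (P1 mandibular) UMIs.

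The cells were kept by the rule given above. The rule, the gene lists and the alternatives were chosen with earlier results of these data known. A level is the sum of a gene's UMIs over a group of cells per 1000000 UMIs of that group (CPM). A gene was called when its levels differed at least 2-fold, the higher one was at least 50 CPM, and, within stages or between them, the direction was the same in both jaws. A count of 0 was set to 3 counts. The steps were checked on simulated counts. Named genes were the 16 with the largest and the 8 with the smallest ratio of kept cells to other mesenchyme, the 6 largest in each direction between jaws, between stages and between Fgf3 and Dkk1 cells, and genes on the lists. Some genes of the lists were left out of the lists' counts and sums and are not reported here. The comparisons of Fgf3, Dkk1 and Crym-alone cells with the other mesenchyme, and the genes named from their ranks or as leading a cluster, were chosen after the values were seen.

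E15.5 barcodes were clustered per library on 2000 variable genes, without Crym, Fgf3, Dkk1, mitochondrial and ribosomal protein genes, with 40 principal components, 15 neighbours and the Leiden method at resolution 1.0 (scanpy 1.11.5, leidenalg 0.10.2, igraph 0.11.9, random seed 0). Clusters are called by number. Doublets were left in: the automatic threshold of Scrublet marked 2, 0, 0 and 0 barcodes, so as an alternative the top-scoring 0.8% per 1000 barcodes of a library were left out, among them 18 maxillary and 14 mandibular kept cells. Of the 13 mandibular Fgf3 cells 4 (30.8%) were among these, and of the 36 maxillary ones 1 (2.78%). In the other mesenchyme these shares were 6.47% and 8.11%. The comparison of Fgf3 cells with the other mesenchyme was not repeated without them. Python 3.11.15, numpy 2.4.6, scipy 1.17.1, pandas 2.3.3, scikit-learn 1.9.0 and matplotlib 3.10.9 were used.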

Additional observations from a re-analysis of the deposited data

Results flagged for a closer look

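Genes called in opposite directions in the jaws were looked for among the 3519 genes that passed the 50 CPM floor in both, in the comparison of all kept cells with the other mesenchyme. There were 3 such genes, of which 2 are named here. Fst, the follistatin gene, had a log2 ratio of 1.19 for maxillary and -1.45 for mandibular cells. Its maxillary level was 369.4 CPM in Dkk1 cells, 1.83 CPM in Fgf3 cells and 29.8 CPM in Crym-alone cells, and the mandibular levels were 22.6, 51.2 and 45.03 CPM. Ibsp had a log2 ratio of -2.36 for maxillary and 4.08 for mandibular cells, where 87.1% of its UMIs in kept cells came from 4 cells. With 1 library for each jaw, the difference between the jaws was not tested.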

How the results depend on the processing

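Of 118 results under an alternative setting, 66 stayed within the limits set for them, 49 moved beyond those and 3 changed sign. The limits were 1.5 times the count for counts of cells or genes, and the 95% counting interval of the reported value for shares and log2 ratios, which is narrow for the cell cycle sums. The cause was not tested except where the setting itself leaves fewer or more cells or genes. A minimum of 3 marker UMIs kept 180 of the 301 cells, and the rule applied after each barcode was thinned to 2000 UMIs kept 22. Kept cells against the other mesenchyme gave 24 higher and 32 lower genes, and 42 and 55 with a minimum of 3 marker UMIs, 55 and 89 at a 20 CPM floor, 252 and 404 with no floor but at least 4 UMIs, and 6 lower genes at 3-fold. Maxillary against mandibular cells gave 148 and 88 genes, and 307 and 174 at 20 CPM, 1395 and 942 with no floor, and 64 and 35 at 3-fold. P1 against E15.5 gave 313 and 202 genes, and 378 lower at 20 CPM, 1030 and 1112 with no floor, 184 and 131 at 3-fold, and 113 and 86 without the P1 barcodes that both P1 libraries hold. Fgf3 against Dkk1 cells gave 213 and 168 genes, and 357 and 349 at 20 CPM, 399 and 453 with no floor, and 66 and 89 at 3-fold.

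Settings added after the data had been seen moved these counts too. Without Crym-alone cells, kept cells against the other mesenchyme gave 58 higher and 150 lower genes, and the jaws differed in 258 and 251. With Fgf3 cells alone the counts were 209 and 333, and 254 and 172, and P1 against E15.5 gave 102 lower genes once the shared P1 barcodes were left out as well. Without muscle cells 14 genes were higher, and with each gene's highest cell left out of the group over all genes 7 were higher and 55 lower. The latter setting is no check of the lower genes, since it takes away a gene's highest count. The fullest cluster held 28.0% of the maxillary cells at a Leiden resolution of 0.5 and 16.7% of the mandibular cells at 2.0, while the share of Fgf3 cells in the fullest cluster was 61.1% and 84.6% at all 3 resolutions.

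For cell cycle genes over all kept cells, the log2 ratio to the other mesenchyme was 0.54 for S phase and 0.64 for G2/M in the maxillary and 0.20 and 0.14 in the mandibular library. With the mean of each cell's own CPM it was 0.70, 0.86, 0.31 and 0.36. Without Crym-alone cells it was 0.59, 0.89, -0.15 and -0.62, a change of sign in the mandibular library. In cells of 8000 to 20000 UMIs it was 0.79 for maxillary G2/M and -0.00 for mandibular S phase. No paired analysis was possible because each stage and jaw had 1 library, and the jaws are groups of the study and not replicates of each other. Depth limits genes with few UMIs, above all in the 13 mandibular Fgf3 cells, which held 234406 UMIs in all.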

Other observations

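The genes lower in Fgf3 cells than in the other mesenchyme of both jaws were headed by Nrg1, B830012L14Rik, Plce1, Angptl1, Ecrg4 and Nav3. Nrg1, which encodes the growth factor neuregulin 1, stood at 18.3 CPM in maxillary Fgf3 cells, 84.4 CPM in Dkk1 cells, 174.9 CPM in Crym-alone cells and 565.2 CPM in the other mesenchyme. Mandibular Fgf3 cells had no UMI of it, and the other groups had 26.0, 278.9 and 461.3 CPM in the same order. Angptl1, which encodes an angiopoietin-like secreted protein, had the same order of groups, with 7.31, 25.3, 174.9 and 294.8 CPM in the maxillary and 12.8, 43.4, 222.6 and 255.5 CPM in the mandibular library. Crym-alone cells were thus the nearest to the other mesenchyme for both genes, which were named after their values were seen.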
